A study of Mus musculus with 3 samples.

Results

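The genes described here encode A20 and the proteins that act with it on ubiquitin chains. They are Tnfaip3, the ABIN genes Tnip1, Tnip2 and Tnip3, the adaptor and ligase genes Tax1bp1 and Itch, and the deubiquitinase genes Otulin and Cyld. They were chosen by gene symbol, and all 8 were found among 55450 annotated genes, 21951 of them protein coding. The cells were bone-marrow-derived macrophages of C57BL/6J mice. They had been exposed to 100 ng/ml Lipid A for 12 hours, kept without it for 12 hours after a wash, and exposed again to 100 ng/ml for 50 minutes before harvest. Lipid A is the part of bacterial lipopolysaccharide that Toll-like receptor 4 recognises. RNA bound to chromatin, which includes RNA still being transcribed, was depleted of ribosomal RNA and sequenced in 3 libraries. The 3 libraries form 1 group. No control cells, untreated or exposed to Lipid A once, were analysed here, and every value below is a level and not a response. The labels give neither age nor sex and name the same donor for all 3 libraries. They do not say whether the libraries came from separate cultures, so the SDs describe how much these 3 samples vary, which may be technical. The p-values rest on the same 3 samples.

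A Toll-like receptor 4 or TNF receptor complex recruits ubiquitin ligases that build lysine-63-linked and linear ubiquitin chains, and these chains hold the kinases that activate NF-κB and MAP kinases. A20 edits or binds such chains and limits the signal. Some ABIN proteins bind ubiquitin and recruit A20, and TAX1BP1 and the ligase ITCH work with A20. CYLD and OTULIN are deubiquitinases of their own, CYLD for lysine-63-linked and linear chains and OTULIN for linear chains alone. Tnfaip3 is widely known as an NF-κB target gene that is transcribed within minutes of a stimulus in macrophages.

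The libraries held 13897176, 19597343 and 19348626 expected counts in replicates 1, 2 and 3, of which the 8 genes took 0.404%, 0.304% and 0.347%. The starting amount of RNA was 1 µg, 250 ng and 500 ng in the same order, and its part in any difference between the libraries was not tested. TPM is a relative abundance corrected for transcript length, and a gene was called detected where all 3 libraries gave it 1 TPM or more. All 8 macrophage marker genes were detected, with a summed TPM of 1007 to 1232. None of the 23 markers of neutrophils, B cells, T cells, dendritic cells, stromal and endothelial cells or erythroid cells was. The highest of them was Pecam1 at 1.45 ± 0.727 TPM (SD, n = 3), and Elane, Cxcr2, Cd3e, Cd3g, Hba-a1 and Klf1 were at 0 in all 3 libraries of the alignment-based tables. In the read-based tables, a second quantification made straight from the reads, 3 of the 23 were detected, namely Cxcr2 at 4.05 ± 0.431 TPM, Pecam1 at 7.92 ± 4.12 and Zbtb46 at 1.40 ± 0.152, and their part in the levels below was not tested.

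All 8 genes of the A20 group were detected, against 39.3% of protein-coding genes. The same held in the read-based tables, against 49.9% of protein-coding genes, and at thresholds of 0.5 and 5 TPM, against 44.5% and 23.9%. Their mean TPM ran from 13.1 for Otulin to 658 for Tnip3, with a median of 57.5. The median over the 9440 protein-coding genes that averaged 1 TPM or more, called expressed genes below, was 8.35. Among these expressed genes Tnip3 and Tnfaip3 stood at percentiles 99.7 and 99.6, Tnip1 at 97.1, Tax1bp1 at 91.7 and Tnip2 at 83.2. Itch, Cyld and Otulin stood lower, at percentiles 71.5, 66.6 and 61.4.

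**Figure D1:**
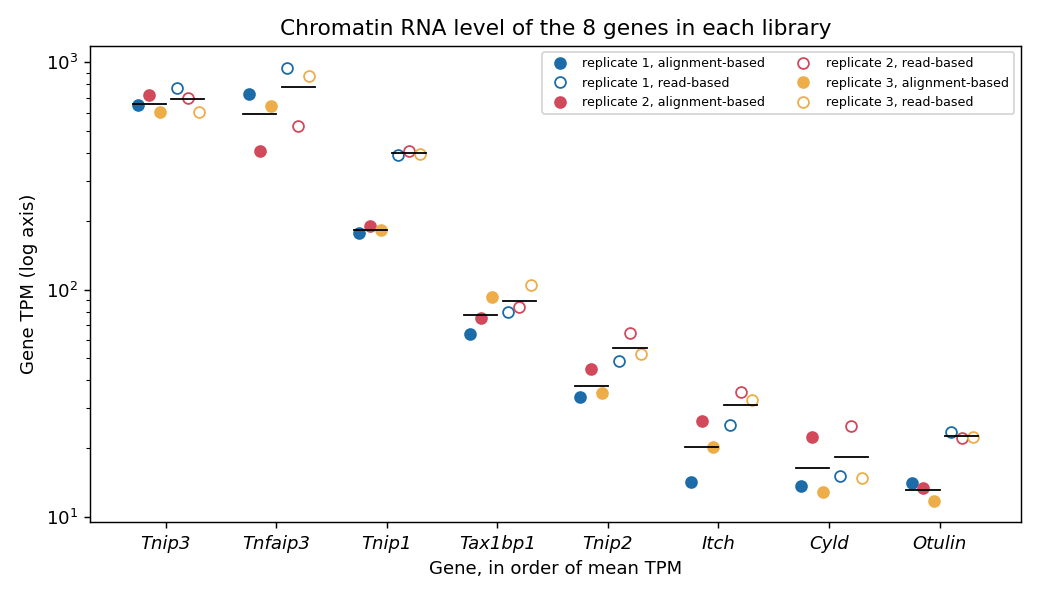
Gene TPM on a log axis for each of the 8 genes in each of the 3 libraries, with filled points for the alignment-based tables, open points for the read-based tables and a line at each mean. Tnip3 and Tnfaip3 lie above 400 TPM in every library in both kinds of table, and Itch, Cyld and Otulin lie below 40.

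Tnfaip3 (ENSMUSG00000019850.11, mm10 chromosome 10, 19000910 to 19015657, minus strand) encodes A20, which carries an OTU-type deubiquitinase domain and zinc fingers that bind ubiquitin. It measured 723.49, 407.28 and 645.5 TPM in replicates 1, 2 and 3, a mean of 592 ± 165 (SD, n = 3). Replicate 2 was the low library, at 0.688 of the mean, and replicate 1 was 1.78 times as high. The deposited interval for the posterior mean TPM of replicate 2, 371 to 391, did not reach those of the other libraries, which began at 656 and 590. The read-based tables gave 948, 526 and 874 TPM and the same order of libraries. Its coefficient of variation (CV) of 27.8% lay at percentile 59.1 of the expressed genes, whose median CV was 24.0%, and at percentile 25.5 without replicate 2.

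Among protein-coding genes, the one whose 3 values were closest to those of Tnfaip3 by Euclidean distance in log2(TPM + 1) was Tnf, at 664.58, 416.8 and 609.44 TPM (distance 0.151). Tnf encodes the cytokine TNF, and it too was lowest in replicate 2. With 3 libraries this is a description of similar levels. The distance rests mainly on the level of a gene and little on its pattern over libraries.

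The 3 ABIN genes differed in level, with Tnip3 highest by gene TPM, then Tnip1, then Tnip2, in all 3 libraries and in both kinds of table. Tnip3 (ENSMUSG00000044162.12, chromosome 6, 65525313 to 65634040, plus strand) encodes ABIN-3. It measured 650.56, 719.76 and 602.37 TPM, a mean of 658 ± 59.0 (SD, n = 3). These 3 values lay close together, with a CV of 8.97% at percentile 9.95 of the expressed genes, or 35.7 without replicate 1. The gene with the closest values was Ptprc, which encodes the leukocyte phosphatase CD45, at 777.68, 666.77 and 685.28 TPM (distance 0.336). It was the largest such distance of the 8, and Ptprc was highest in replicate 1 where Tnip3 was highest in replicate 2. The read-based tables put Tnip3 highest in replicate 1.

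Tnip1 (ENSMUSG00000020400.17, chromosome 11, 54910785 to 54962917, minus strand) encodes ABIN-1, the ABIN protein best known for restraining inflammation. It measured 176.91, 189.89 and 183.77 TPM, a mean of 184 ± 6.49 (SD, n = 3), and its CV of 3.54% was the lowest of the 8 genes, at percentile 1.73. The read-based tables put it at 398 ± 9.71 TPM, between 2.15 and 2.20 times the alignment-based value in each library, the largest such ratio of the 8. Tnip2 (ENSMUSG00000059866.13, chromosome 5, 34496087 to 34513991, minus strand) encodes ABIN-2, which binds A20 and also holds the kinase TPL2. It measured 33.8, 44.54 and 35.05 TPM, a mean of 37.8 ± 5.87 (SD, n = 3), with 55.0 ± 8.46 in the read-based tables.

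Tnip3 exceeded Tnip1 3.68-fold, 3.79-fold and 3.28-fold in replicates 1, 2 and 3. In the read-based tables the same ratio was 1.98, 1.70 and 1.53. Tnip1 exceeded Tnip2 5.23-fold, 4.26-fold and 5.24-fold, and 8.06-fold, 6.33-fold and 7.56-fold in the read-based tables. The order of the 3 ABIN genes by gene TPM was the same in every library, while the size of each step depended on the quantification. The step from Tnip1 to Tnip3 was not seen in protein-coding transcripts alone, where Tnip3 stood at 103.39, 80 and 95.9 TPM and Tnip1 at 79.22, 87.5 and 101.45, so Tnip1 was the higher in replicates 2 and 3.

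Tax1bp1 (ENSMUSG00000004535.12, chromosome 6, 52713729 to 52766780, plus strand) encodes a ubiquitin-binding adaptor of A20 that also serves as an autophagy receptor. It measured 63.84, 74.63 and 93.04 TPM, a mean of 77.2 ± 14.8 (SD, n = 3), and was highest in replicate 3, as no other of the 8 genes was. Itch (ENSMUSG00000027598.16, chromosome 2, 155133509 to 155226855, plus strand) encodes a HECT-type ubiquitin ligase of the NEDD4 family. It measured 14.18, 26.41 and 20.36 TPM, a mean of 20.3 ± 6.12 (SD, n = 3), and its highest library was 1.86 times its lowest, the widest range of the 8. Tax1bp1 exceeded Itch 4.50-fold, 2.83-fold and 4.57-fold.

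Cyld (ENSMUSG00000036712.15, chromosome 8, 88697028 to 88751945, plus strand) encodes a deubiquitinase with a USP-type catalytic domain. It measured 13.72, 22.45 and 12.85 TPM, a mean of 16.3 ± 5.31 (SD, n = 3). Replicate 2 alone was high, and the CV of 32.5% (percentile 68.7) fell to percentile 14.7 without it. Otulin (ENSMUSG00000046034.8, chromosome 15, 27542635 to 27630693, minus strand) encodes an OTU-type deubiquitinase that cleaves linear chains. It measured 14.14, 13.45 and 11.78 TPM, a mean of 13.1 ± 1.21 (SD, n = 3), and rested on 214, 235 and 223 expected counts, the fewest of the 8 genes. The read-based tables gave 22.7 ± 0.784 TPM for Otulin and 18.3 ± 5.81 for Cyld, which reversed the order of the 2 means.

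Tnfaip3 stood far above both deubiquitinase genes in every library. It exceeded Cyld 52.7-fold, 18.1-fold and 50.2-fold in replicates 1, 2 and 3, and Otulin 51.2-fold, 30.3-fold and 54.8-fold. Replicate 2 gave the smallest ratio in both cases, the library where Tnfaip3 was lowest and Cyld highest. Across the 8 genes in the alignment-based tables, replicate 2 was the highest library for Tnip3, Tnip1, Tnip2, Itch and Cyld and the lowest for Tnfaip3 alone. How many of all protein-coding genes were highest or lowest in replicate 2 was not counted, so this is not shown to be particular to these genes.

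Ordered by mean TPM, the genes ran Tnip3, Tnfaip3, Tnip1, Tax1bp1, Tnip2, Itch, Cyld and Otulin. The neighbouring pairs and their direction were thus set by the same values that are compared below. For 4 of the 7 neighbouring pairs the ranges over libraries did not overlap and the first gene was higher in all 3 libraries. Tnfaip3 exceeded Tnip1 by 1.64 ± 0.49 on the log2(TPM + 1) scale (SD over 3 libraries), Tnip1 exceeded Tax1bp1 by 1.26 ± 0.25, Tax1bp1 exceeded Tnip2 by 1.00 ± 0.34 and Tnip2 exceeded Itch by 0.89 ± 0.26. Each of these gave p = 0.25 in an exact two-sided sign-flip test, the smallest value that 3 libraries allow, and an adjusted p of 0.35 over the 7 pairs by the Benjamini-Hochberg method. Itch exceeded Cyld in all 3 libraries by 0.30 ± 0.30, with overlapping ranges and the same exact p of 0.25. In counts per library total, which are not corrected for length, Tnip1 minus Tax1bp1 was -0.14 and Tnip2 minus Itch -0.46.

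The remaining neighbours were not separated beyond their spread. Tnip3 was above Tnfaip3 in replicate 2 only, at ratios of 0.899, 1.77 and 0.933 in replicates 1, 2 and 3 (mean difference 0.19 ± 0.55, exact sign-flip p = 1). The read-based tables put Tnfaip3 first on average, with a difference of -0.15. Cyld was above Otulin in 2 of 3 libraries (0.26 ± 0.39, exact p = 0.5, adjusted p = 0.583), and the read-based difference was -0.34.

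Much of the TPM of these genes lay in transcripts annotated as retained intron, a class that keeps intron sequence and has no annotated reading frame. Tnip3 had the smallest share in protein-coding transcripts, 15.9%, 11.1% and 15.9% in replicates 1, 2 and 3, and 24.6% ± 2.09 (SD, n = 3) in the read-based tables. Itch followed with 32.1% ± 4.65, Tnfaip3 with 35.9% ± 7.12, Cyld with 37.0%, Tnip2 with 48.0% ± 7.42 and Tnip1 with 48.7% ± 5.68. Tax1bp1 at 50.9% ± 3.86 and Otulin at 74.5% ± 12.3 were the 2 genes over 50%. Tax1bp1, Tnip1 and Tnip2 lay too close to 50% to be placed on either side of it. Without replicate 1 Tax1bp1 was at 49.6% and Tnip1 at 50.6%, and without replicate 2 Tnip2 was at 50.5%. For comparison, the median over the 6106 expressed genes with an annotated retained-intron transcript was 46.6%, with quartiles at 30.7% and 63.4%, and 44.4% of them were over 50%. Only Tnip3 of these genes lay below the lower quartile, and in the read-based tables, whose lower quartile was 23.3%, it lay just above it while Itch, at 16.6%, lay below. Otulin has no annotated retained-intron transcript, and its remainder was Otulin-203, annotated as a target of nonsense-mediated decay.

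**Figure D2:**
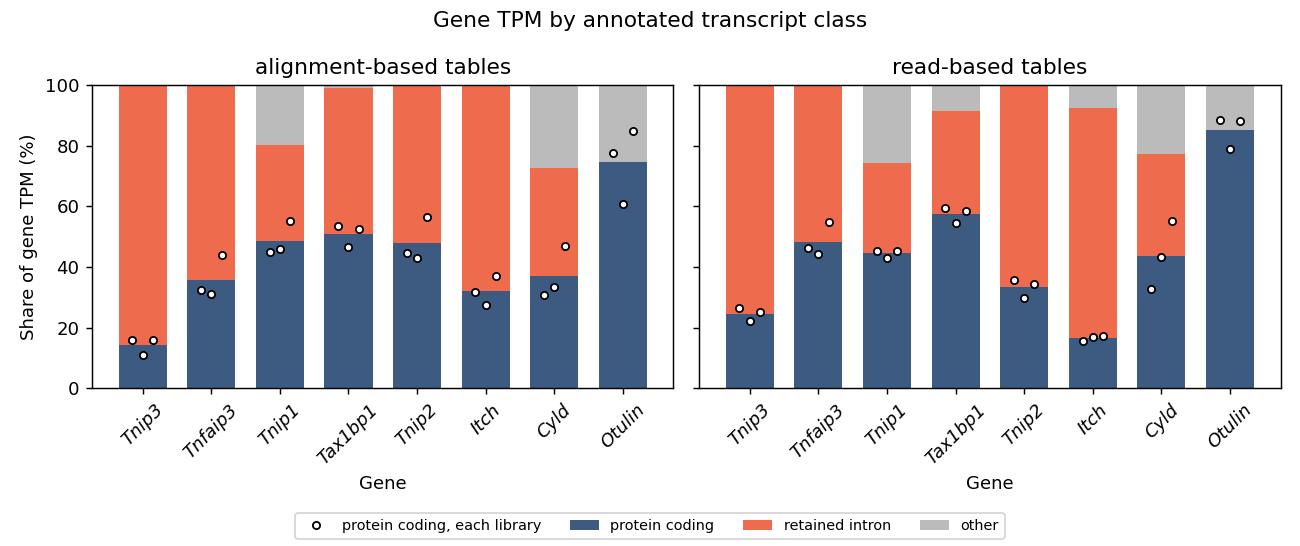
Mean share of gene TPM, in percent, by annotated transcript class for the 8 genes in the alignment-based and the read-based tables, with points for the protein-coding share of each library. Tnip3 has the smallest protein-coding share in the alignment-based tables (14.3%) and Otulin the largest in both.

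These shares depend on length. TPM gives a short transcript more weight than its reads alone would, and by expected counts 5 of the 8 genes, in place of 2, had over 50% in protein-coding transcripts, a comparison chosen after the data were seen. Tax1bp1 was not among the 5, at 47.5% ± 3.36 of counts. The largest shift was that of Tnip1, from 48.7% of TPM to 90.7% ± 1.97 of counts. The largest single part of it was Tnip1-209, a retained-intron transcript of 442 bases that carried 31.5% of the gene's TPM on 177 to 216 expected counts. For Tnip3 the protein-coding share by counts was still 20.4% ± 3.44, and for Tnfaip3 39.9% ± 7.88. If protein-coding transcripts alone were counted, Tnfaip3 stood at 215 TPM and Tnip3 at 93.1, and Tnfaip3 was above Tnip3 in all 3 libraries by 1.13 on the log2 scale.

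Tnip3 spans 108728 bases, and 4 retained-intron transcripts in the upstream part of Tnip3-201 held most of its TPM. Tnip3-204 is a single exon of 2624 bases, 2495 of them outside every protein-coding exon, and stood at 159 ± 33.6 TPM (SD, n = 3). Tnip3-206 is a single exon of 4627 bases, 4383 of them outside protein-coding exons, and stood at 141 ± 19.1 TPM with 8682 to 11956 expected counts per library. With 4107 bases in no other Tnip3 transcript, Tnip3-206 is the one whose reads can be told apart best. The shorter Tnip3-205 (842 bases) and Tnip3-203 (426 bases) stood at 150 ± 45.1 and 113 ± 56.6 TPM, and neither holds a base that no other transcript of the gene has. Tnip3-201, the protein-coding transcript that starts at 65590398, stood at 72.3 ± 9.77 TPM.

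Tnip3-207, a protein-coding transcript that starts at 65525385, far upstream of Tnip3-201, was the point on which the 2 quantifications differed most for this gene. The alignment-based tables gave it 40.65, 8.02 and 13 TPM, and the values in the read-based tables were 158, 110 and 97.5. It too has no base of its own among Tnip3 transcripts. Its upstream partner Tnip3-208, which has 72 such bases, was at 0, 0 and 0.63 TPM.

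Tnfaip3 is compact, at 14748 bases. Tnfaip3-206, a retained-intron transcript of 764 bases, carried 214 ± 59.9 TPM (SD, n = 3), and Tnfaip3-205, a retained-intron transcript of 6199 bases that reaches from the first to the last exon, carried 163 ± 46.5. By expected counts Tnfaip3-205 was the larger, with 12280 to 16941 per library against 1520 to 2273 for Tnfaip3-206. The protein-coding Tnfaip3-202 stood at 172.77, 95.62 and 146.13 TPM. Tnfaip3-201, which differs from it at the 5′ end and was picked for its spread after the values were seen, stood at 2.62, 10.09 and 105.4 TPM, so replicate 3 held most of it. The short protein-coding Tnfaip3-204 (456 bases) was at 37.5 ± 19.6 TPM in the alignment-based and 214 ± 64.4 in the read-based tables.

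**Figure D3:**
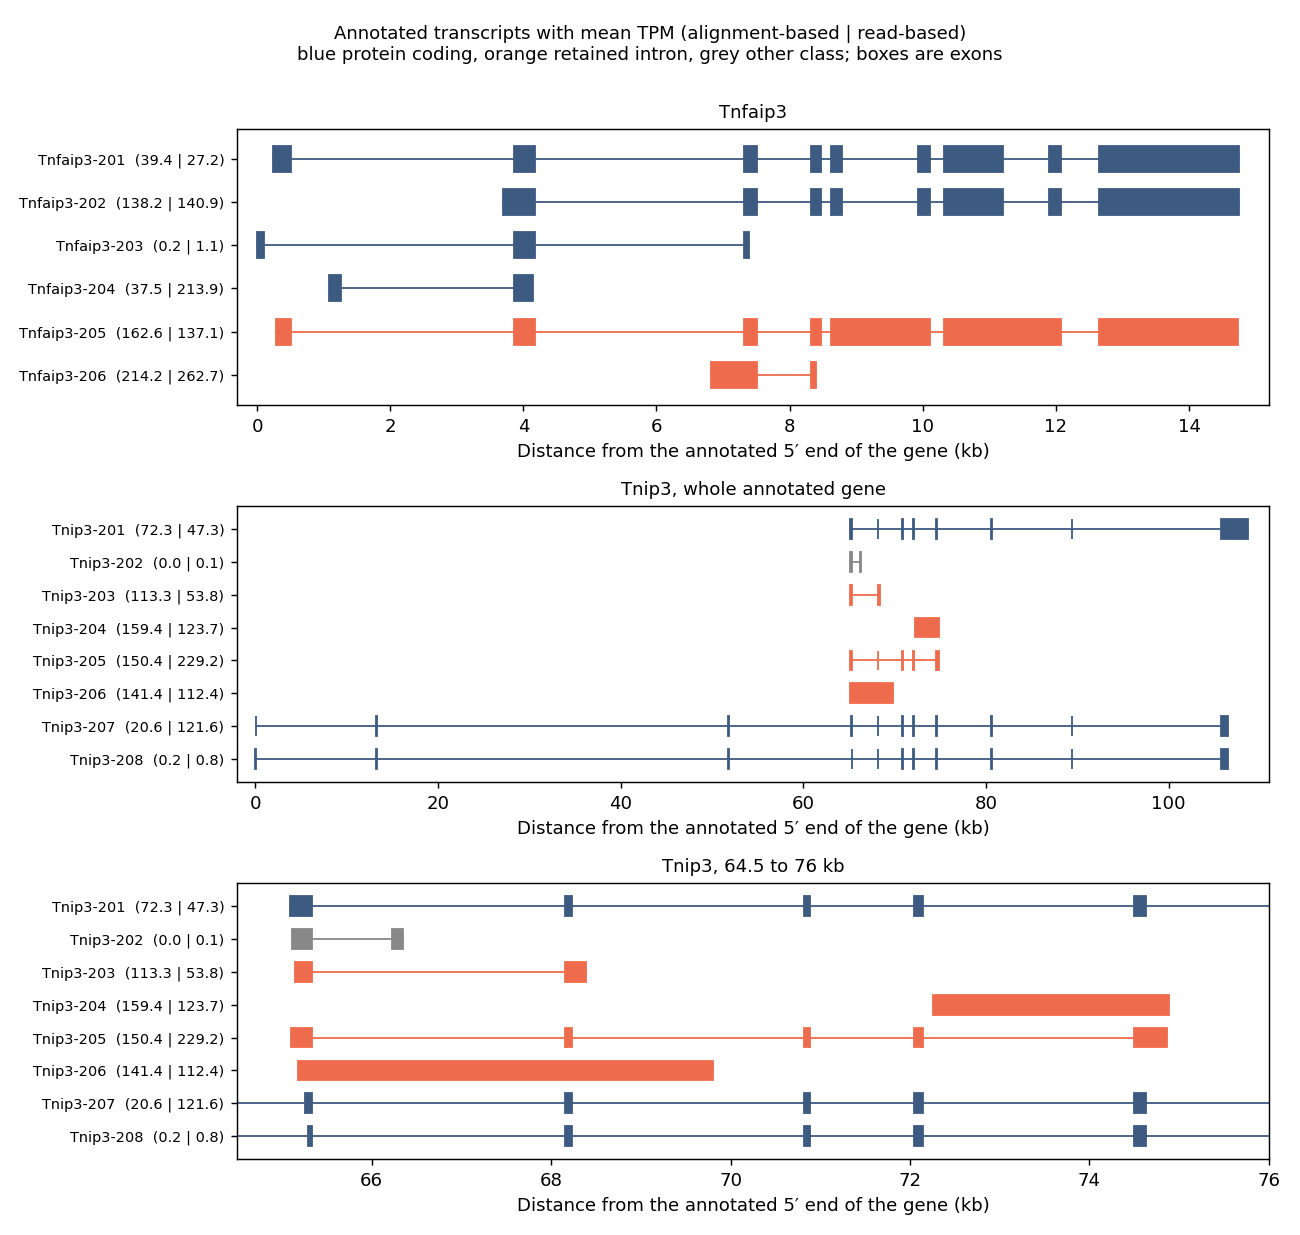
Annotated transcripts of Tnfaip3 and Tnip3 by distance in kb from the 5′ end of the gene, with exons as boxes, protein-coding transcripts in blue, retained-intron transcripts in orange and other classes in grey, and mean TPM in the alignment-based and read-based tables beside each name. The retained-intron transcripts Tnip3-203 to Tnip3-206 cluster in the upstream part of Tnip3-201, and Tnfaip3-205 spans the whole of Tnfaip3.

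Some of these transcripts run through introns that protein-coding transcripts of the same gene splice out, so reads placed there fall on intron sequence. The exon-intron borders of 4 such introns are shown because they mark where the coding and the retained-intron transcripts part. Each shows 10 bases of exon and 20 of intron on the gene's strand, from the GENCODE M21 transcripts on mm10, and capitals mark the first bases of the intron. The introns span chr6:65590653-65593468 (2816 bases) in Tnip3-206, chr10:19003758-19004456 (699 bases) and chr10:19005732-19006862 (1131 bases) in Tnfaip3-205, and chr8:88729839-88730655 (817 bases) in Cyld-207.
Tnip3-206, chr6:65590643-65590672, plus strand: gcacacagagGTaagagcatgtgtcaggtt
Tnfaip3-205, chr10:19006843-19006872, minus strand: agtggacctgGTaagaaaacatcagttcct
Tnfaip3-205, chr10:19004437-19004466, minus strand: gaaaataagcGTgagtgaaatcagagattg
Cyld-207, chr8:88729829-88729858, plus strand: actggaactgGTaatttaatttggccaaaa
All 4 introns begin with GT, the usual first bases of a spliced intron. Tnip3-206 and Tnfaip3-205 carried 21.5% ± 1.90 and 27.5% ± 1.59 (SD, n = 3) of their gene's TPM, while Cyld-207 carried 16.3% ± 4.37 at 2.81 ± 1.65 TPM.

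Tax1bp1-201, the full-length coding transcript, held 43.2% ± 2.97 (SD, n = 3) of Tax1bp1, and the retained-intron transcripts Tax1bp1-202 and Tax1bp1-206 held 26.0% ± 2.28 and 22.2% ± 1.63. The coding Tax1bp1-204 held 12.1% in the read-based tables only. Tnip2-202 held 40.6% ± 7.98 of Tnip2, and the retained-intron transcripts Tnip2-206 and Tnip2-204 held 24.5% and 20.9%, with Tnip2-205 at 6.64% or, in the read-based tables, 22.0%. For Itch the retained-intron transcript Itch-204 covers only the first 5780 bases after the start of a gene of 93347 bases. It held a mean of 31.3% ± 3.67, against 24.5% ± 10.1 for the full-length coding Itch-201. In replicate 3 Itch-201 was the higher, at 7.14 TPM against 6.61. By expected counts Itch-201 was higher in every library, at 143.2, 549.14 and 582.37 against 66, 118.44 and 101.25. In the read-based tables Itch-204 held 38.7% of TPM and Itch-201 8.70%. Itch-203 and Itch-205, also of the retained-intron class, held 19.1% and 12.8%.

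Tnip1-205, a full-length coding transcript, held 28.5% ± 4.04 (SD, n = 3) of Tnip1. The read-based tables gave it 28.4 TPM against 52.2 and spread the gene more widely, with Tnip1-208 at 63.8 against 17.4, Tnip1-211 at 56.1 against 13.4 and Tnip1-210 at 46.2 against 22.7. Tnip1-209 was also higher there, at 118 against 57.8 TPM. Cyld had 7 transcripts with at least 10% of its TPM in either kind of table, the most of the 8 genes. Cyld-208, a processed transcript from its 5′ end, led with 27.4% ± 7.12, followed by Cyld-207, the coding Cyld-203 at 12.8% and the single-exon retained-intron Cyld-211 at 12.7%. The coding Cyld-206 held 11.1%, and Cyld-210 and Cyld-204 passed 10% only in the read-based tables, at 16.1% and 14.3%. Otulin-201 held 72.7% ± 12.0 of Otulin and Otulin-203 held 25.5% ± 12.3.

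The promoters of these genes were searched for the κB motif, the sequence that NF-κB dimers bind, since Tnfaip3 is a known target of that factor. The windows ran from 250 bases before to 50 after each RefSeq start (GRCm38.p6), 7 of the 8 genes matched the RefSeq table, all but Itch, and both strands were searched. The motif was written GGGRNNYYCC, where R is A or G, Y is C or T and N is any base. Of 32851 windows of 300 bases, 8.46% held a match. Tnfaip3, Tnip1, Tnip3 and Cyld held 1 or more before the start, and Tax1bp1 held 1 after a second annotated start. The windows of Tnip2 and Otulin held none. The 5 stretches before a start are shown on the gene's strand, with the matching bases in capitals.
Tnfaip3, chr10:19015403-19015432, minus strand: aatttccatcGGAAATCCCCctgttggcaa
Tnfaip3, chr10:19015516-19015545, minus strand: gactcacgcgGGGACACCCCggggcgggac
Tnip1, chr11:54962978-54963007, minus strand: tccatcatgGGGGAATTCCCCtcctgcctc
Tnip3, chr6:65590334-65590363, plus strand: gagacatcctGGGAAATCCCagttacatgg
Cyld, chr8:88696863-88696892, plus strand: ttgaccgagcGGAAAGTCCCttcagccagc
The Tnfaip3 matches lie 12 to 3 and 125 to 116 bases before the start, that of Tnip3 54 to 45 and that of Cyld 155 to 146. The nearer Tnfaip3 match and the Cyld match fit the motif on the opposite strand. The Tnip1 stretch, 58 to 47 bases before the start, is 3 overlapping matches, 1 of them on the opposite strand. The Tnip3 match lies before the start of Tnip3-201 and not before that of Tnip3-207. Tnfaip3 also held 1 match to the AP-1 motif TGANTCA, 136 to 130 bases before the start. That motif was found in 7.81% of windows, and the other 6 genes searched held none. The κB and AP-1 matches of Tnfaip3 lie before the start of Tnfaip3-201. The window of its second annotated start, that of Tnfaip3-202, held no match to either motif. A match is a run of letters and not evidence of binding, which was not measured here.

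Neighbouring genes bear on these values where transcripts overlap, since the sources used here do not say whether the strand of reads was used. Tnfaip3 and Tnip3 had no other annotated gene within 20 kb. Tnip1 overlaps the processed pseudogene Gm12230 on the opposite strand, at 65.46, 74.22 and 66.58 TPM, and Gpx3, which encodes a secreted glutathione peroxidase, ends 408 bases from its 3′ end at 8.34 ± 0.652 TPM (SD, n = 3). Tax1bp1 overlaps the processed pseudogene Gm43967 at 16.2 ± 4.26 TPM and Gm43966 at 1.95 ± 0.726. Pseudogene reads and reads from the introns around them cannot be told apart where strand is unknown. Otulin overlaps Ank, a pyrophosphate transport gene on the opposite strand at 5.76 ± 0.766 TPM, through Otulin-202, which was itself at 0.74, 0 and 0 TPM. Cyld lies 8554 bases downstream of Nod2, a sensor of bacterial peptidoglycan on the same strand at 73.1 ± 2.67 TPM, and Nod2 was above Cyld in every library.

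The other overlapping or neighbouring genes that averaged 1 TPM or more were lower or more distant. Within Cyld lay the pseudogenes Gm17910 at 4.22 TPM and Gm17995 at 1.65, and within Itch Gm14227 at 2.65, all on the opposite strand. Anxa6 lay near Tnip1 at 20.2 TPM, Jazf1 near Tax1bp1 at 3.56 and Dynlrb1 near Itch at 1.93. Near Tnip2, Sh3bp2 stood at 113 ± 34.0 TPM, Fam193a at 42.4, Gm26931 at 10.1 and Gm43457 at 3.95.

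The closest gene by distance over the 3 libraries was Sf1, a splicing factor gene, for Tnip1 (distance 0.0655). It was Junb, an AP-1 subunit gene, for Tax1bp1 (0.0517), with 65.02, 75.98 and 95.46 TPM in replicates 1, 2 and 3. For Tnip2 it was Capns1 (0.0312), for Itch Mbtps1 (0.0560), for Cyld Blvra (0.0852) and for Otulin Dnttip1 (0.0789).

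Other proteins that build, bind or remove ubiquitin chains, with their partners, were represented by 59 chosen genes in 5 lists. Of these, 49 were detected, against 39.3% of all protein-coding genes. The lists need not cover whole families, so their counts and medians hold for the listed genes only. The median over all 59 was 16.1 TPM. By mean TPM Sqstm1 alone lay above Tnip3 and Tnfaip3, Birc3 and Sqstm1 lay above Tnip1, and 31 of the 59 lay above Otulin. In replicate 2 Sqstm1, at 466.87 TPM, was below Tnip3, at 719.76. Of the 16 genes for chain assembly and the receptor complex, 15 were detected, and the median was 33.2 TPM. Birc3, which encodes the ligase cIAP2, stood at 436.84, 331.66 and 289.96 TPM, followed by the ubiquitin-conjugating enzyme gene Ube2d3 at 157 ± 22.1 (SD, n = 3) and the chain-binding adaptor gene Tab2 at 59.9 ± 2.82. Tab3 was lowest at 2.79 ± 2.77.

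Other deubiquitinases of the OTU family, to which A20 and OTULIN belong, were lower, at a median of 6.18 TPM and 9 of 13 detected. Otud5 led at 89.6 ± 10.9 TPM (SD, n = 3), then Vcpip1 at 28.6 and Otud4 at 17.9. Tnfaip3 was above every one of them, and Otulin was below those 3 in the alignment-based tables. In the read-based tables Otulin, at 22.7 ± 0.784 TPM, was not below Vcpip1, at 22.6 ± 3.90. Otud7a was at 0, 0.02 and 0 TPM in the alignment-based tables and at 82.6 ± 11.1 in the read-based tables, so its level is not settled. Of the 12 listed genes of the USP family, that of CYLD's catalytic domain, 11 were detected. The median of these 12 chosen genes, 41.6 TPM, was above the mean of Cyld. Usp7 stood at 84.4 ± 6.23 TPM, Usp15 at 73.5 ± 6.24 and Usp18, which removes the ubiquitin-like protein ISG15, at 122.2, 46.9 and 38.46, with replicate 1 alone high. Usp2 was lowest at 0.28 TPM.

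Among the other NEDD4-family ligases and their adaptors, 7 of 10 were detected at a median of 6.89 TPM. Wwp2 at 57.5 ± 4.55 TPM (SD, n = 3), Wwp1 at 47.5 ± 11.5 and Nedd4l at 31.2 ± 10.5 had higher means than Itch, and Hecw1 was lowest with 1 expected count in all. Of 8 autophagy receptors and partners of A20 or CYLD, 7 were detected. Sqstm1, which encodes the autophagy receptor p62, stood at 923.97, 466.87 and 1017.77 TPM and Optn, which encodes the related receptor optineurin, at 101.5, 45.29 and 65.46, both lowest in replicate 2 as Tnfaip3 was. Among the named genes of the lists, Nedd4l, Tollip, Ube2d3 and Vcpip1 were also lowest in that library. So were other listed genes not named here, and the share over all genes was not counted. Tollip stood at 22.0 ± 1.84 TPM, and Calcoco2 had 0 counts in all 3 libraries, where 3 counts would give 0.160 to 0.197 TPM, a limit of counting error only.

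**Figure D4:**
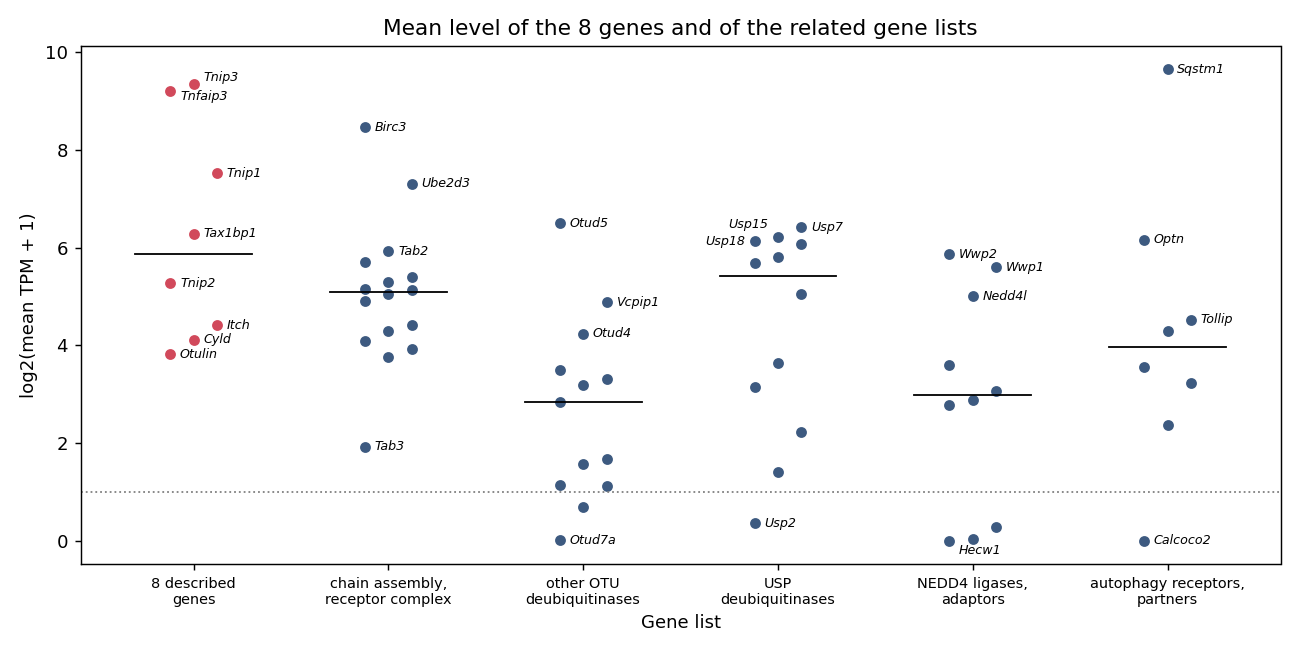
Mean level over the 3 libraries, as log2(mean TPM + 1), of the 8 genes and of 59 related genes in 5 lists, with a line at each median, a dotted line at a TPM of 1 and names for the highest 3 and the lowest gene of each list. Sqstm1 is the only listed gene above Tnip3 and Tnfaip3, and the other OTU deubiquitinases have the lowest median, 6.18 TPM against 6.89 for the NEDD4 list, an order that turns in the read-based tables (13.1 against 8.92).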

How the data were processed

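For each of the 3 libraries the authors deposited gene and transcript tables based on alignment, and 1 further transcript table quantified straight from reads. Build mm10 and GENCODE M21 were used, per the file headers. The sources used here do not give the programs, their versions or the use of strand. The expected or estimated counts deposited by the authors are reads or fragments assigned to a gene or transcript and need not be whole. The TPM values deposited by the authors are corrected for effective length and sum to 1000000. The deposited percent of a gene's TPM per transcript was recomputed from TPM. The interval bounds deposited by the authors beside the posterior mean TPM are scores of unstated credible level.

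1 marker gene of the cell type check is not reported here. The members and gene lists were chosen with earlier results of these data known. Of 55536 gene identifiers in the tables, 55450 matched the annotation used here. Read-based TPM was summed per gene. Replicates were compared by chi-square over counts (41.6 to 103 per degree of freedom), so none was a repeat deposit. Detection meant 1 TPM or more in all 3 libraries. Neighbouring genes in the order of levels were compared within libraries on log2(TPM + 1) by an exact two-sided sign-flip test, and Benjamini-Hochberg adjustment covered 7 pairs. Named were all 8 genes, the 3 highest and 1 lowest of each list, each member's closest gene, genes within 20 kb at a mean TPM of at least 1, and transcripts with at least 10% of a member's TPM in either table. Alternatives were the read-based tables, posterior means, protein-coding transcripts only, rescaling to protein-coding genes, CPM (expected counts scaled to the library total), other thresholds, a pseudocount of 0.1, no filter on low values and each library left out. Scripts ran in Python 3.11.15 with pandas 2.3.3 and scipy 1.17.1 and were tested on simulated data. Intervals and counting floors cover counting error only.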

Additional observations from a re-analysis of the deposited data

How the results depend on the processing

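No comparison between groups, paired or not, was possible because the libraries form 1 group. Genes were compared with each other within each library. All 8 genes were detected under each of the 9 alternatives. Their levels depended on the scale used. Protein-coding genes held 29.5%, 27.6% and 28.2% of all TPM in replicates 1, 2 and 3. Rescaling to protein-coding genes raised the mean of Tnip3 from 658 to 2316 and that of Otulin from 13.1 to 46.1. The difference of Tnip3 and Tnfaip3 on the log2 scale changed sign to -0.15 in the read-based tables, -1.13 with protein-coding transcripts only and -0.34 in CPM, and ranged from -0.13 to 0.36 when 1 library was left out, being negative without replicate 2. That of Cyld and Otulin became -0.34 in the read-based tables and -0.65 with protein-coding transcripts only. In CPM, which is not corrected for length, the differences of Tnip1 and Tax1bp1 (-0.14) and of Tnip2 and Itch (-0.46) changed sign. The other 55 recomputed differences kept their direction, and no exact p could pass a threshold of 0.05 with 3 libraries. The number of genes with over 50% of their value in protein-coding transcripts was 5 by expected counts in place of 2 by TPM. The numbers of list genes detected stayed within 1.5 times in all 25 recomputations. Leaving out replicate 2 moved the CV percentile by over 25 points for 4 of the 8 genes, and leaving out replicate 1 for 1, so CVs over 3 libraries are uncertain. Otulin, at 214 to 235 expected counts, is the gene whose level depth limits most.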
